A study of Rattus norvegicus with 28 samples.

Results

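The mRNA levels of 10 amino acid transporter genes were followed across all 8 RNA-seq libraries of a study of rat kidney fibroblasts. The genes, taken as a named list by their function, were Slc7a5, Slc3a2, Slc7a11, Slc7a1, Slc7a3, Slc1a4, Slc1a5, Slc38a1, Slc38a2 and Slc6a9, 10 of the 30178 genes in the expression table. Of these, 9 passed a filter of at least 1 FPKM in at least 2 libraries and were tested, and Slc7a3 did not pass. FPKM stands for fragments per kilobase of gene, scaled to library size, so levels can be set side by side between genes.

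The cells were NRK-49F, an established line of fibroblasts from rat kidney that serves as a culture model of kidney scarring. There were 4 groups of 2 libraries each. Control cells had no treatment, and the second group received the cytokine transforming growth factor β1, written TGF-β here. The remaining groups received it as well, joined either to a medium low in methionine (MetR) or to an siRNA that targets the homeobox transcript Hoxc8 (siHoxc8). Per the labels the 3 groups with cytokine had it for 48 h at a dose printed as 5 ng per uL, and no time is given for the control group. Before treatment the cells were kept for 24 h in low serum (0.2%), the labels state. The restriction medium held 30 uM methionine, against 200 uM in its own control medium. The labels do not say that the TGF-β libraries were grown in that control medium, nor that they received a control siRNA, so a change in either comparison cannot be told apart from an effect of the medium's other components or of transfection. Nor do they state separate cultures for replicate libraries, and p-values therefore measure only the spread between these libraries, which may be technical.

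The recovered depth was 15118113 to 20146870 reads per library, and the tested transporter genes held between 765 reads (Slc7a11, TGF-β replicate 2) and 29908 reads (Slc38a2, TGF-β with MetR replicate 2). Replicates were tighter in control and siHoxc8 (median SD of log2 values 0.0565 and 0.0580) than in TGF-β (0.118) and MetR (0.172). The siRNA target Hoxc8 stood at 1.12 and 1.34 FPKM in control, 4.32 and 5.01 in TGF-β, 0.417 and 0.614 in TGF-β with MetR, and 0.463 and 0.0771 in TGF-β with siHoxc8. It was low in the siHoxc8 libraries, which the label calls for, and also in the MetR libraries, whose labels name no siRNA. Of 9 fibroblast markers 8 reached 1 FPKM in at least 1 library, while Thy1 was listed at 0. Their sums were 5920 FPKM or more in every library, mostly from Col1a1 and Vim. The markers were not uniform over libraries. Dcn reached 1 FPKM only in control replicate 1 (1.08) and was 0 in both siHoxc8 libraries. Lum was 0.367 and 0.666 FPKM in TGF-β and 36.5 and 6.53 in MetR. Col3a1 was 367 and 374 FPKM in TGF-β, 506 and 105 in MetR, and 2588 and 2785 in siHoxc8. The 5 endothelial markers stayed under 1 FPKM, and of 6 leukocyte markers only Cd68 reached it. Of 9 epithelial markers only Krt8 and Cdh16 reached 1 FPKM, and Epcam and Umod were listed at 0 in every library. Cdh16 reached it only in the MetR libraries (2.53 and 2.76 FPKM) and was at most 0.106 FPKM in all others. Krt8 carried nearly all of the epithelial sum, with 194 to 252 FPKM in the control, TGF-β and MetR libraries and 685 and 646 FPKM in the siHoxc8 libraries. The part of Krt8 in the siHoxc8 results and of Cdh16 in the MetR results was not tested.

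Amino acids cross the plasma membrane through transporters that differ in the amino acids they carry and in what drives them. Slc3a2 is a heavy chain with a single membrane span, which joins light chains such as Slc7a5 (LAT1, which exchanges large neutral amino acids, methionine and leucine among them) or Slc7a11 (xCT, which brings in cystine in exchange for glutamate). Slc7a1 and Slc7a3 (CAT1 and CAT3) carry arginine and lysine on their own. Slc1a4 and Slc1a5 (ASCT1 and ASCT2) exchange small neutral amino acids, with glutamine a main substrate of Slc1a5. Slc38a1 and Slc38a2 (SNAT1 and SNAT2) take up glutamine, alanine and other neutral amino acids, methionine included, with sodium, and Slc6a9 (GLYT1) takes up glycine with sodium and chloride. When amino acids are scarce, cells translate more of the transcription factor ATF4, which binds composite C/EBP-ATF elements, and many of these genes are among its known targets. Slc7a11 is also a known target of NRF2, which binds antioxidant response elements.

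RefSeq promoter windows (build GRCr8, 250 bases before to 50 after a transcription start) were matched by symbol for 8 of the 10 genes, in 9 windows, since Slc3a2 has 2. Slc1a5 and Slc7a3 were not matched. The build differs from the rn6 assembly listed by the submitters, so the positions are those of RefSeq. Both strands were searched for the C/EBP-ATF composite element, spelled TGATGNAAN, and for the antioxidant response element, spelled TGACNNNGC. The first was found in 1328 of 33469 promoter windows of 300 bases (3.97%) and the second in 4038 (12.1%). The 250 bases before the start of Slc7a1 and of Slc7a5 are shown because these genes showed the 2 largest rises of the 9 tested genes under MetR. The upstream sequence of Slc7a1 (chr12:11664238-11664487, plus strand) holds a composite element 30 bases before the start and, on the opposite strand, an antioxidant element 107 bases before it, both in capitals. That of Slc7a5 (chr19:66872413-66872662, minus strand) holds neither.
Slc7a1: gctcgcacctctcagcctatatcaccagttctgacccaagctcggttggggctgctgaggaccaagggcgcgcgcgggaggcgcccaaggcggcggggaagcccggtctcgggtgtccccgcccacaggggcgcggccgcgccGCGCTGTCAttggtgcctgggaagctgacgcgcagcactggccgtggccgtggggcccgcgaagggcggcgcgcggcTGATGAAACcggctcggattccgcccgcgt
Slc7a5: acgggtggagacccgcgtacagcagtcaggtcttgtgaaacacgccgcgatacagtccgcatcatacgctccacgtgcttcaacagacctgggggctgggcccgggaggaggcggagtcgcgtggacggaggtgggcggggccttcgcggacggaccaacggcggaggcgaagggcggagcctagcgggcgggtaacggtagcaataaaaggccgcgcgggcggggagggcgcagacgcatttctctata

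Other matches, shown with up to 15 bases on either side, fell in 4 further genes. The composite element lay 142 bases before the start of Slc38a1 (chr7:129681520-129681558, same strand) and 236 bases before that of Slc1a4 (chr14:98761775-98761812, opposite strand). The antioxidant element lay 45 bases before 1 of the 2 starts of Slc3a2 (chr1:215039692-215039730, opposite strand) and 50 bases before that of Slc38a2 (chr7:129742646-129742684, same strand). The capitals mark the element as it reads on the strand of the gene.
Slc38a1 composite element: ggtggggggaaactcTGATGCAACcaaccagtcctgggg
Slc1a4 composite element: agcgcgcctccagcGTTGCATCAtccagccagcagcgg
Slc3a2 antioxidant element: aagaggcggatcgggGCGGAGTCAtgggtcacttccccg
Slc38a2 antioxidant element: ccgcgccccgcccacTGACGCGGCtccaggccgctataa
The windows of Slc7a11 and Slc6a9, like that of Slc7a5, held neither spelling, which says only that these letters are not in them.

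Levels spanned a wide range. In the control libraries Slc3a2 was highest, followed by Slc38a2, and both libraries held Slc7a11 and Slc7a3 as the lowest. Slc38a2 stood above Slc3a2 in both TGF-β libraries and below it in the other 6, and Slc7a5 passed Slc38a2 in the siHoxc8 libraries. The FPKM summed over the 10 genes was 663 and 689 in control and 706 and 665 in TGF-β. It was 1220 and 1556 in TGF-β with MetR, and 1202 and 1226 in TGF-β with siHoxc8. Per library the 10 genes thus took 0.134% to 0.155% of all FPKM in the control and TGF-β libraries and 0.249% to 0.339% in the others, with no overlap. In RNA from whole cultures, a change per cell and a change in the mix of cells cannot be told apart. Changes are given as the ratio of mean FPKM (fold) and as the log2 difference of FPKM + 1 with its SE, tested with limma and adjusted by the Benjamini-Hochberg method over 12315 genes. A gene is called higher or lower at an adjusted p under 0.05.

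**Figure D1:**
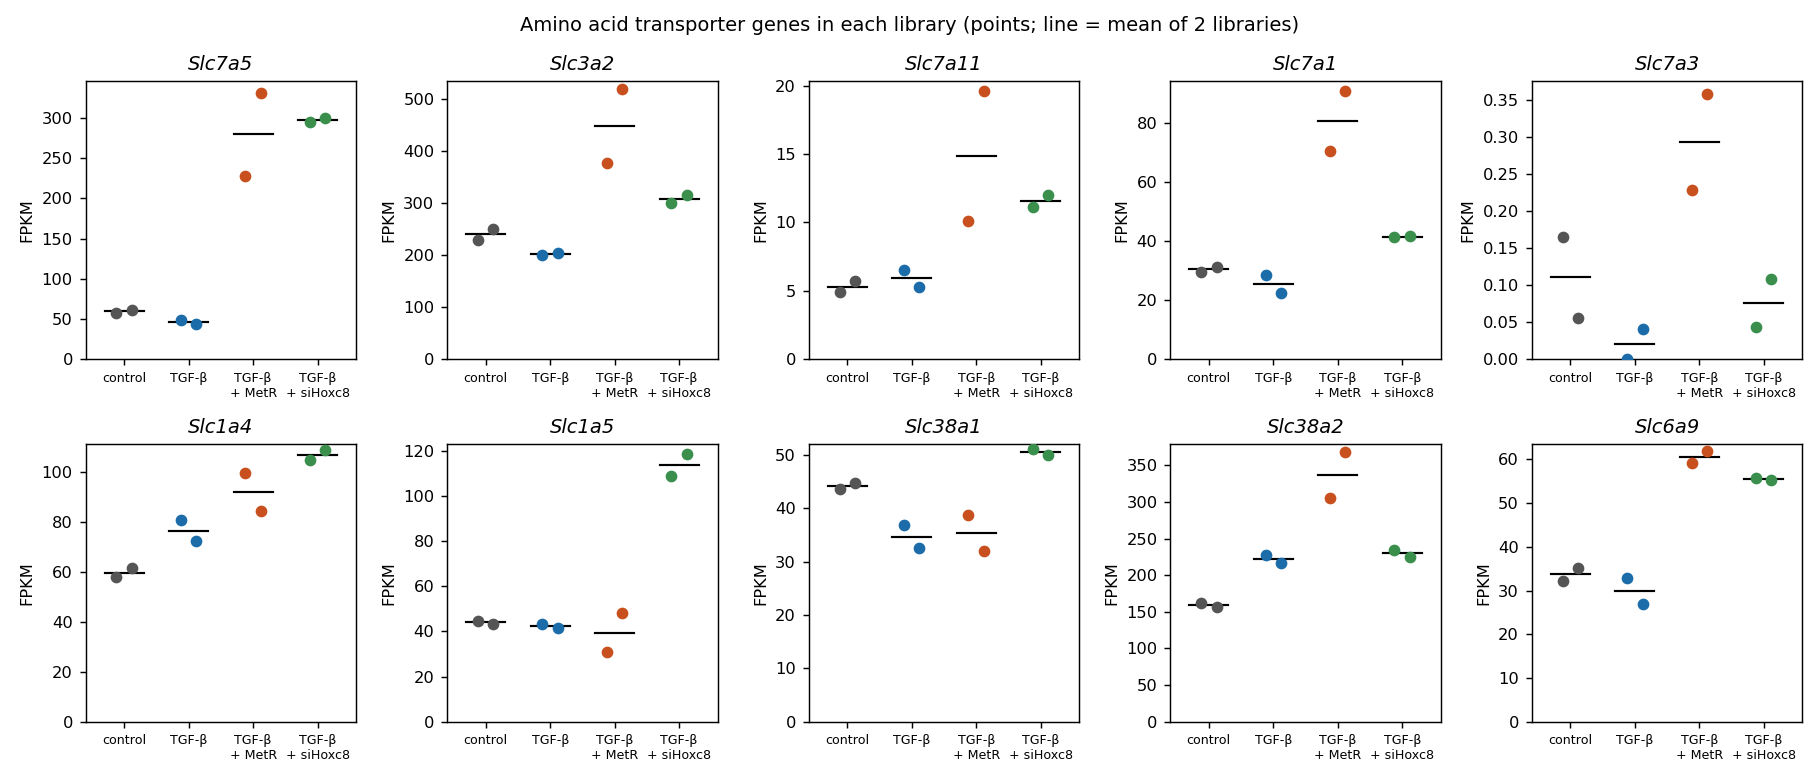
FPKM of each of the 10 transporter genes in every library, on linear axes that start at 0, with points for the 2 libraries of a group and a line at their mean. Slc7a5 lies between 43.4 and 61.6 in the control and TGF-β libraries and between 228 and 332 in the MetR and siHoxc8 libraries, while Slc1a5 is high in the siHoxc8 libraries alone (109 and 119).

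TGF-β by itself left most of the transporter genes without a call. Of the 9 tested, 2 were higher (Slc38a2 and Slc1a4), none was lower and 7 were neither, against 10.3% of all tested genes called higher and 28.6% called lower. The median log2 change of the 9 was -0.17, close to the median of all tested genes, -0.19. MetR with TGF-β, set against TGF-β, gave 6 higher, none lower and 3 neither, with a median of 1.00 against 0.18 for all genes, of which 34.8% were higher and 19.0% lower. siHoxc8 with TGF-β, set against the same TGF-β libraries, gave 8 higher, none lower and 1 neither, with a median of 0.69 against 0.13 for all genes, of which 28.1% were higher and 15.7% lower. These comparisons share the TGF-β libraries, so each gene's values are given side by side and no overlap is read from them. Slc7a5, Slc3a2 and Slc38a1 had log2 changes of -0.36, -0.24 and -0.34 under TGF-β, beside the median of -0.19 for all genes. They were called lower when either MetR library was left out, which leaves the TGF-β and control libraries as they were. More of all genes were then called lower as well.

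The median of all genes moved under other scalings. With median ratio rescaling it was 0.01 for TGF-β against control, -0.00 for MetR and -0.01 for siHoxc8. The same rescaling moved the values of the 9 tested transporter genes up by 0.20 to 0.23 under TGF-β. It moved them by -0.22 to -0.19 under MetR and by -0.17 to -0.15 under siHoxc8. The share of higher among all called genes moved with it. It went from 26.5% to 52.9% for TGF-β, from 64.7% to 48.9% for MetR and from 64.1% to 48.4% for siHoxc8. After this rescaling Slc7a5, Slc3a2 and Slc38a1 were at -0.13, -0.01 and -0.11 under TGF-β, and none of them was called.

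**Figure D2:**
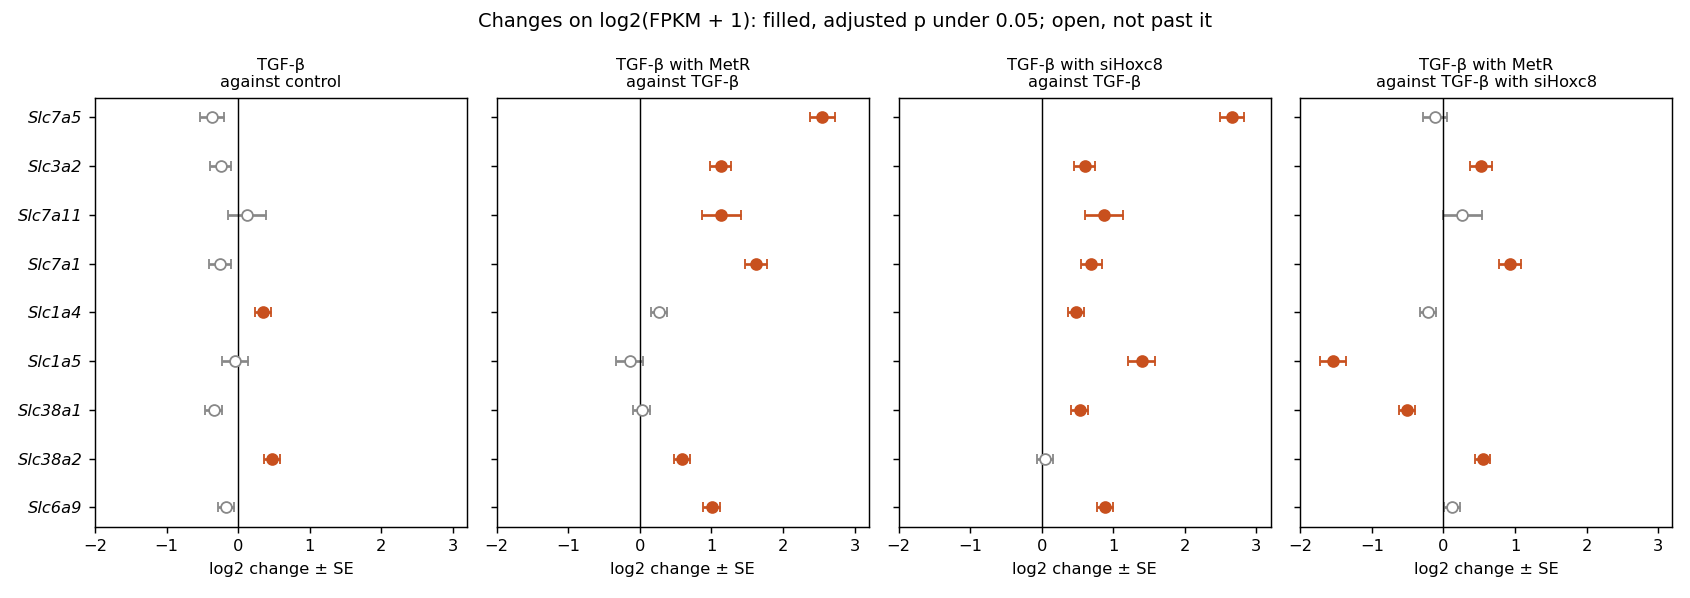
Log2 change of FPKM + 1 with its SE for the 9 tested genes in 4 comparisons, filled where called. Slc7a5 lies at 2.55 under MetR and 2.66 under siHoxc8, Slc7a1 is larger under MetR (1.62 against 0.69), and Slc1a5 is called under siHoxc8 (1.40) and not under MetR (-0.14).

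The light chain Slc7a5 showed the largest change of the 9 tested genes under MetR and under siHoxc8. Its FPKM was 57.5 and 61.6 in control, 49.0 and 43.4 in TGF-β, 228 and 332 in TGF-β with MetR, and 295 and 299.6 in TGF-β with siHoxc8. All 4 libraries of the combined treatments stood above every control and TGF-β library, and the 2 MetR libraries differed from each other more than the siHoxc8 pair. Slc7a5 rose 6.06-fold under MetR (log2 change 2.55 ± 0.17, adjusted p = 7.03e-05) and 6.44-fold under siHoxc8 (2.66 ± 0.17, adjusted p = 5.64e-05). TGF-β alone gave -0.36 ± 0.17 (adjusted p = 0.128). The group means ran from 297 ± 3.32 FPKM (SD, n = 2) for siHoxc8 and 279.7 ± 73.4 for MetR down to 59.5 ± 2.88 for control and 46.2 ± 4.00 for TGF-β. Neither of the neighbouring pairs, siHoxc8 with MetR and control with TGF-β, passed the test. That test pools the spread of all 4 groups, the wide MetR pair included. Slc7a5 was called lower under TGF-β in 4 of 17 alternatives, the limma fit of control and TGF-β alone among them (adjusted p = 0.0264). It was not called in the other 13, and its value was -0.13 after median ratio rescaling.

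Its heavy chain partner Slc3a2 also rose under both, by less. Slc3a2 measured 229.8 and 249 FPKM in control, 200.1 and 204 in TGF-β, 378 and 519 in MetR, and 299.5 and 315 in siHoxc8. The 4 groups did not overlap, with MetR highest. The rise was 2.22-fold under MetR (1.13 ± 0.15, adjusted p = 0.000762) and 1.52-fold under siHoxc8 (0.60 ± 0.15, adjusted p = 0.0142). The siHoxc8 call was lost without either siHoxc8 library or either TGF-β library (0.57 to 0.64, adjusted p = 0.0531 to 0.0833).

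The FPKM of Slc7a5 per FPKM of Slc3a2 shows how the chains shifted against each other. The ratio was 0.250 and 0.247 in control, 0.245 and 0.213 in TGF-β, 0.603 and 0.639 in MetR, and 0.985 and 0.952 in siHoxc8. In the siHoxc8 libraries the level of this light chain came close to that of the heavy chain. The share of Slc7a5 in the summed FPKM of the 10 genes went with it, from 6.52% to 8.93% in the control and TGF-β libraries to 18.7% and 21.3% in MetR and 24.5% and 24.4% in siHoxc8. These ratios are descriptions of mRNA levels, not of assembled transporters.

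**Figure D3:**
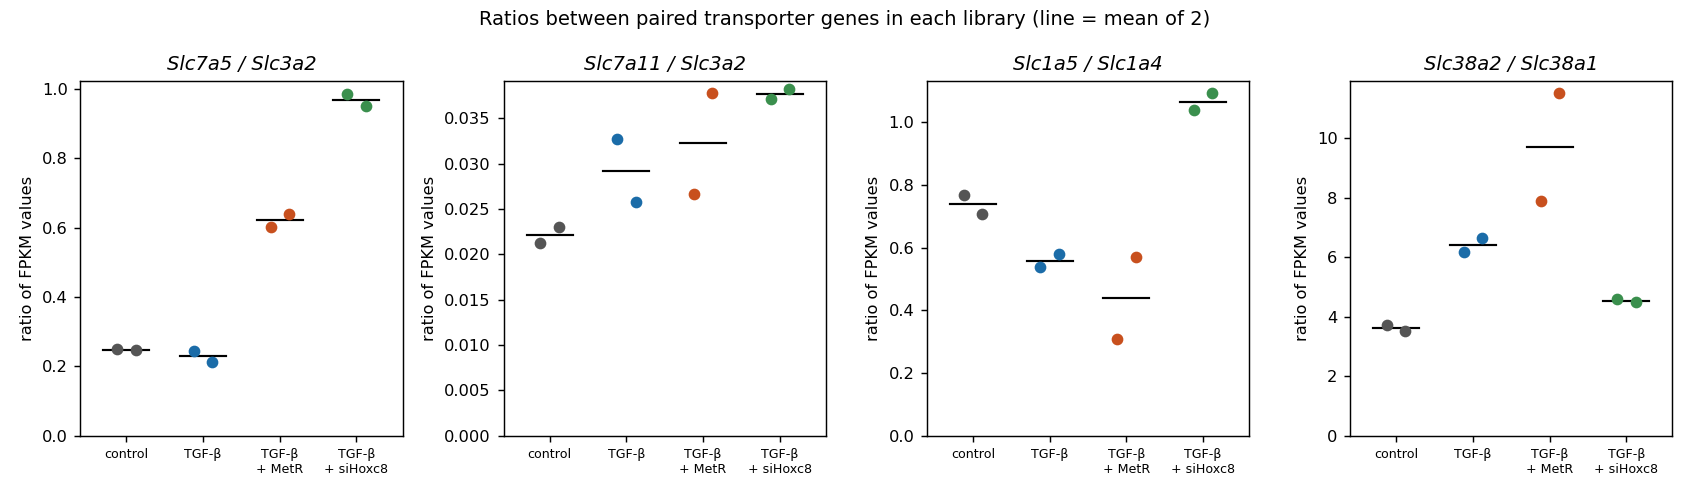
Ratios of FPKM between 4 pairs of transporter genes in each library (points), with a line at the mean of 2. Slc7a5 over Slc3a2 steps up from at most 0.250 in control and TGF-β to 0.603 and 0.639 in MetR and 0.985 and 0.952 in siHoxc8, whereas Slc38a2 over Slc38a1 is highest in MetR (7.88 and 11.5).

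Slc7a11, the light chain of the cystine and glutamate exchanger, was the lowest of the 9 tested transporter genes in every library. It stood at 4.87 and 5.74 FPKM in control, 6.54 and 5.24 in TGF-β, 10.1 and 19.6 in MetR, and 11.1 and 12.0 in siHoxc8. The control and TGF-β libraries overlapped and all lay below the other 4, and MetR replicate 2 stood well above MetR replicate 1. Slc7a11 rose 2.52-fold under MetR (1.14 ± 0.27, adjusted p = 0.00899) and 1.96-fold under siHoxc8 (0.87 ± 0.27, adjusted p = 0.0323). Neither call was firm. Without TGF-β replicate 2 the MetR change was 1.00 (adjusted p = 0.0653), without MetR replicate 2 it was 0.69 (adjusted p = 0.0111), and the siHoxc8 call was lost in 7 of 17 alternatives (adjusted p up to 0.157). The ratio of Slc7a11 to Slc3a2 was 0.0212 and 0.0230 in control, 0.0327 and 0.0258 in TGF-β, 0.0267 and 0.0378 in MetR, and 0.0371 and 0.0382 in siHoxc8. The siHoxc8 pair stood above the control and TGF-β libraries, and the MetR pair overlapped both TGF-β and siHoxc8.

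Among the cationic carriers, Slc7a1 rose under both treatments and more under MetR. Its FPKM was 29.5 and 31.1 in control, 28.4 and 22.4 in TGF-β, 70.5 and 90.7 in MetR, and 41.4 and 41.5 in siHoxc8. No MetR library overlapped any other library, and the siHoxc8 pair lay between MetR and control. The rise was 3.17-fold under MetR (1.62 ± 0.15, adjusted p = 0.00021) and 1.63-fold under siHoxc8 (0.69 ± 0.15, adjusted p = 0.00834). Both calls were kept in all 17 alternatives.

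Slc7a3, the other cationic carrier, was barely detected. It held 9 and 3 reads in control, 0 and 2 in TGF-β, 14 and 19 in MetR, and 2 and 6 in siHoxc8, which corresponds to at most 0.357 FPKM. No fold is given, because TGF-β replicate 1 held 0 reads, and with so few reads elsewhere this does not show that the transcript was absent. All 13 mitochondrially encoded genes of the table are listed at 0 in every library. For genes at 0 throughout, such as Thy1, a 0 may therefore not be a measured absence. With no filter on low values, Slc7a3 entered the test and was called higher in MetR than in TGF-β (0.34 ± 0.07, adjusted p = 0.0157) and than in siHoxc8 (0.26 ± 0.07, adjusted p = 0.0362). These rest on at most 19 reads per library, and their size is set largely by the pseudocount.

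The neutral exchangers Slc1a4 and Slc1a5 parted. Slc1a5 measured 44.5 and 43.5 FPKM in control, 43.5 and 41.8 in TGF-β, 30.7 and 48.2 in MetR, and 109 and 119 in siHoxc8. Only the siHoxc8 libraries stood apart, and the MetR pair straddled the control and TGF-β libraries. Slc1a5 rose 2.67-fold under siHoxc8 (1.40 ± 0.19, adjusted p = 0.000992), and its value under MetR was -0.14 ± 0.19 (adjusted p = 0.538). The MetR value turned on a single library, being 0.17 (adjusted p = 0.126) without MetR replicate 1 and -0.46 (adjusted p = 0.00516) without replicate 2.

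Slc1a4 was 57.8 and 61.6 FPKM in control, 80.8 and 72.3 in TGF-β, 99.7 and 84.4 in MetR, and 105 and 109 in siHoxc8. Its libraries climbed from control through TGF-β and MetR to siHoxc8 with no overlap. It rose 1.28-fold under TGF-β (0.35 ± 0.11, adjusted p = 0.0408) and a further 1.40-fold under siHoxc8 (0.48 ± 0.11, adjusted p = 0.0112), while the step from TGF-β to MetR gave 0.26 ± 0.11 (adjusted p = 0.0836), and 0.38 (adjusted p = 0.0164) without MetR replicate 2. The TGF-β call was lost without any single control, TGF-β or siHoxc8 library, with no low-value filter and under quantile normalization (adjusted p = 0.0526 to 0.218), and its size was 0.58 after median ratio rescaling. The siHoxc8 call was lost in 5 of 17 alternatives, median ratio rescaling among them (0.31, adjusted p = 0.0749). The ratio of Slc1a5 to Slc1a4 was 0.769 and 0.707 in control, 0.539 and 0.578 in TGF-β, 0.308 and 0.571 in MetR, and 1.04 and 1.09 in siHoxc8, so Slc1a5 exceeded Slc1a4 only in the siHoxc8 libraries.

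The sodium-coupled pair also parted. Slc38a2 measured 163 and 157 FPKM in control, 228 and 217 in TGF-β, 306 and 369 in MetR, and 234 and 225 in siHoxc8. TGF-β and siHoxc8 libraries overlapped, above control and below MetR. Slc38a2 rose 1.39-fold under TGF-β (0.47 ± 0.11, adjusted p = 0.0134) and 1.52-fold more under MetR (0.59 ± 0.11, adjusted p = 0.00334), whereas siHoxc8 gave 0.05 ± 0.11 (adjusted p = 0.756). The TGF-β call was lost under quantile normalization and without either control library or TGF-β replicate 1 (0.31 to 0.50, adjusted p = 0.0511 to 0.0972). The MetR call held in all 17 alternatives, with sizes from 0.38 after median ratio rescaling to 0.93 after quantile normalization.

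Slc38a1 was 43.6 and 44.7 FPKM in control, 36.9 and 32.5 in TGF-β, 38.8 and 32.0 in MetR, and 51.1 and 50.1 in siHoxc8. TGF-β and MetR libraries overlapped at the bottom and the siHoxc8 pair was highest. It rose 1.46-fold under siHoxc8 (0.53 ± 0.12, adjusted p = 0.00857). The value was -0.34 ± 0.12 under TGF-β (adjusted p = 0.0523) and 0.02 ± 0.12 under MetR (adjusted p = 0.873). The siHoxc8 call was lost without either siHoxc8 library, after median ratio rescaling (0.37, adjusted p = 0.0508) and under quantile normalization (0.39, adjusted p = 0.0585). The ratio of Slc38a2 to Slc38a1 was 3.73 and 3.51 in control, 6.18 and 6.66 in TGF-β, 7.88 and 11.5 in MetR, and 4.58 and 4.50 in siHoxc8.

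The glycine transporter Slc6a9 rose by nearly equal amounts under both treatments. Its FPKM was 32.2 and 35.1 in control, 32.9 and 26.8 in TGF-β, 59.1 and 61.8 in MetR, and 55.8 and 55.3 in siHoxc8. The control and TGF-β libraries overlapped well below the other 4. The rise was 2.02-fold under MetR (1.00 ± 0.11, adjusted p = 0.000436) and 1.86-fold under siHoxc8 (0.88 ± 0.11, adjusted p = 0.000895), and both calls were kept in all 17 alternatives.

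Whether the responses to MetR and to siHoxc8 differ was tested by setting those groups against each other. Of the 9 genes 3 were higher in MetR, 2 were higher in siHoxc8 and 4 were neither, against 29.3% of all genes higher and 24.9% lower in MetR. Slc7a1 was 1.94-fold higher in MetR (0.93 ± 0.15, adjusted p = 0.00165), Slc38a2 was 1.47-fold higher (0.55 ± 0.11, adjusted p = 0.00467) and Slc3a2 was 1.46-fold higher (0.53 ± 0.15, adjusted p = 0.0193). Slc1a5 was 2.89-fold higher in siHoxc8 (-1.54 ± 0.19 for MetR minus siHoxc8, adjusted p = 0.000419), and Slc38a1 was 1.43-fold higher there (-0.51 ± 0.12, adjusted p = 0.00805). Slc7a5 (-0.11 ± 0.17), Slc7a11 (0.27 ± 0.27), Slc1a4 (-0.22 ± 0.11) and Slc6a9 (0.12 ± 0.11) did not pass, with adjusted p of 0.598, 0.429, 0.135 and 0.402. Those misses do not show that the levels are equal. Without MetR replicate 2, Slc7a5 was lower in MetR (-0.38, adjusted p = 0.0167), and without MetR replicate 1, Slc7a11 was higher (0.71, adjusted p = 0.00787) and Slc1a4 lower (-0.34, adjusted p = 0.0224). The Slc3a2 call was lost without either siHoxc8 library and in the fit of those 2 groups alone (adjusted p = 0.0597 to 0.102) and was 0.30 without MetR replicate 2, and the Slc38a1 call was lost without siHoxc8 replicate 1 (-0.49, adjusted p = 0.0556).

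Set against untreated control, the MetR libraries had 7 of the 9 genes higher, 1 lower and 1 neither, with a median of 0.88 against -0.01 for all genes, of which 28.0% were higher and 29.3% lower. Slc7a5 was 4.70-fold above control (2.19 ± 0.17, adjusted p = 5.56e-05), Slc7a11 2.80-fold (1.26 ± 0.27, adjusted p = 0.00509), Slc7a1 2.66-fold (1.37 ± 0.15, adjusted p = 0.000242) and Slc38a2 2.11-fold (1.07 ± 0.11, adjusted p = 0.000185). Slc38a1 was the exception on the lower side (-0.32 ± 0.12, adjusted p = 0.0496), a call that 11 of 17 alternatives lost, and Slc1a5 gave -0.19 ± 0.19 (adjusted p = 0.412), which was -0.51 (adjusted p = 0.00301) without MetR replicate 2. The Slc7a11 value was 0.82 without MetR replicate 2. The siHoxc8 libraries were not tested against control.

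**Figure D4:**
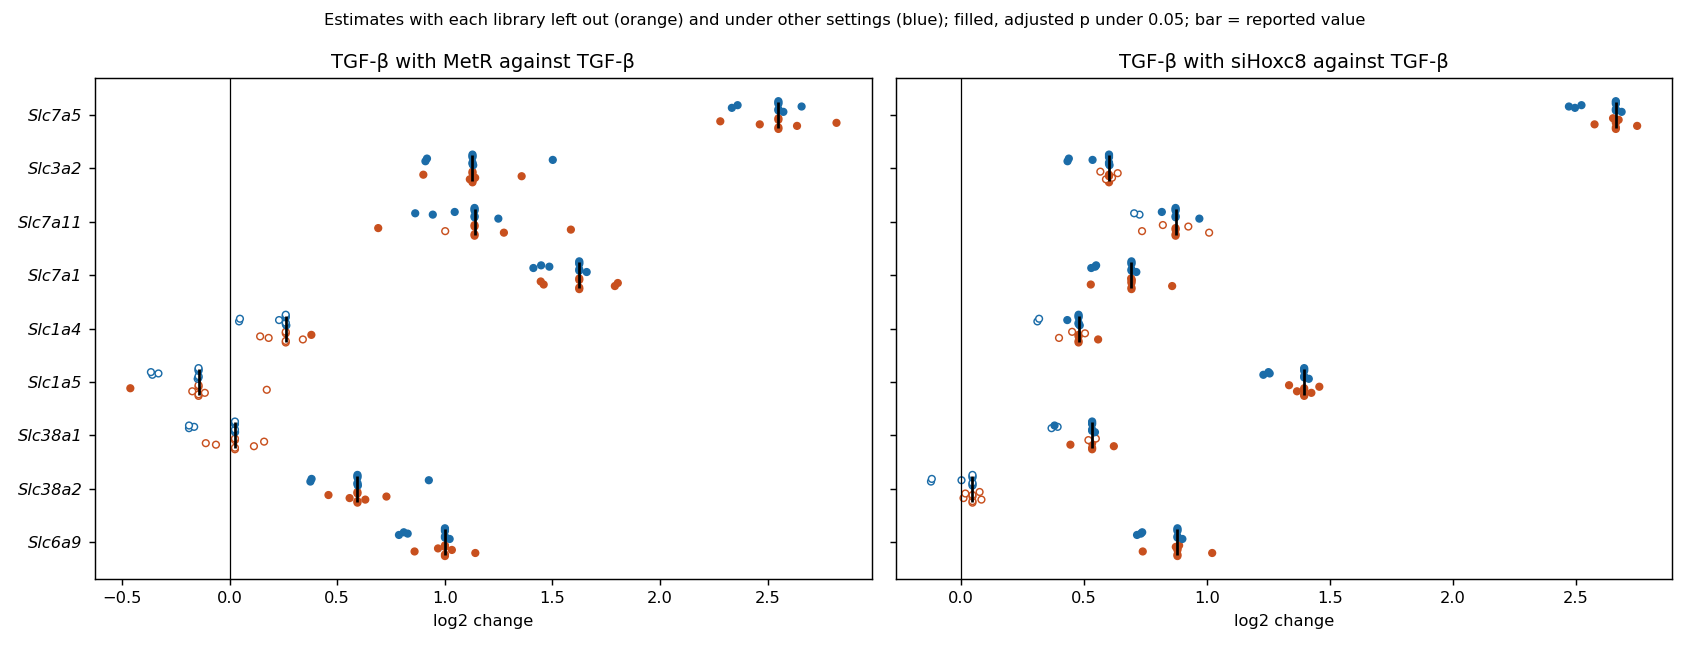
Log2 change of each tested gene under MetR and under siHoxc8, both against TGF-β, with each library left out (orange) and under other settings (blue), filled where called, and a bar at the reported value. Slc7a5, Slc7a1 and Slc6a9 stay called in all of them on both sides, and the siHoxc8 values of Slc3a2, Slc7a11, Slc1a4 and Slc38a1 lose their calls in 4 to 7.

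The filter left 20 of 43 other amino acid transporters. Under MetR 2 of them were higher, 5 lower and 13 neither (median -0.13), under siHoxc8 5 were higher, 5 lower and 10 neither (median -0.03), and under TGF-β 4 were higher, 3 lower and 13 neither (median -0.15). The shares of all genes called higher and lower were 34.8% and 19.0%, 28.1% and 15.7%, and 10.3% and 28.6% in the same order. The 6 most abundant were named whatever their result. Slc7a6 and Slc7a7, light chains that pair with Slc3a2 and exchange cationic for neutral amino acids, rose under siHoxc8, Slc7a6 1.90-fold (0.90 ± 0.10, adjusted p = 0.000519) and Slc7a7 2.46-fold (1.23 ± 0.13, adjusted p = 0.000336). Slc7a6 measured 15.5 and 15.7 FPKM in control, 21.9 and 19.9 in TGF-β, 21.7 and 24.7 in MetR and 39.4 and 40.0 in siHoxc8. Slc7a7 measured 9.24 and 7.38 in control, 11.4 and 13.2 in TGF-β, 12.3 and 12.3 in MetR and 30.5 and 29.9 in siHoxc8. Both siHoxc8 pairs stood above every other library, and both genes were higher in siHoxc8 than in MetR (log2 differences for MetR minus siHoxc8 of -0.75 and -1.23, adjusted p = 0.000716 and 0.000213).

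The taurine transporter Slc6a6 fell by 1.22 on the log2 scale under MetR (SE 0.34, adjusted p = 0.0197), from 106 and 70.7 FPKM in TGF-β to 55.4 and 24.1. The libraries of TGF-β and of MetR did not overlap, but replicates differed widely within both groups. The mitochondrial aspartate and glutamate carrier Slc25a13 rose under TGF-β (0.46 ± 0.11, adjusted p = 0.0126), and the mitochondrial glycine carrier Slc25a38 fell by 0.42 under siHoxc8 (SE 0.11, adjusted p = 0.0172). Slc38a10, the most abundant of the 20, passed in none of the 3 comparisons.

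Of 24 tested genes of the ATF4 amino acid response, 15 were higher and 2 lower under MetR (median 0.96), 14 higher and 3 lower under siHoxc8 (median 0.52), and 3 higher and 6 lower under TGF-β (median 0.00). Of all tested genes 34.8% were higher and 19.0% lower under MetR, 28.1% and 15.7% under siHoxc8, and 10.3% and 28.6% under TGF-β, so the TGF-β counts of this list lie near the background. Atf4 itself measured 287 and 277 FPKM in control, 281 and 319 in TGF-β, 542 and 738 in MetR and 433 and 430.1 in siHoxc8. It rose 2.13-fold under MetR (1.07 ± 0.15, adjusted p = 0.001) and 1.44-fold under siHoxc8 (0.52 ± 0.15, adjusted p = 0.0261), and was higher in MetR than in siHoxc8 (0.55 ± 0.15, adjusted p = 0.0171). The Atf4 libraries of control and TGF-β overlapped below the siHoxc8 pair, which lay below MetR.

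Of the 24 genes of the ATF4 list, 13 were higher and 5 lower in MetR than in siHoxc8, against 29.3% and 24.9% of all genes. Among the named targets Trib3, Chac1, Ddit3 and Sesn2 were higher in MetR. Trib3, a pseudokinase, was 191 and 299.9 FPKM in MetR and 67.0 and 68.2 in siHoxc8 (1.81 ± 0.19 for MetR minus siHoxc8, adjusted p = 0.000206). Chac1, a glutathione-degrading enzyme, rose by 1.98 under MetR and by 0.71 under siHoxc8 (difference 1.27 ± 0.10, adjusted p = 6.26e-05), and the transcription factor Ddit3 (CHOP) by 1.57 under MetR with 0.29 under siHoxc8 (difference 1.28 ± 0.14, adjusted p = 0.000277). Sesn2, a leucine sensor, rose by 1.62 and 0.79 (difference 0.83 ± 0.12, adjusted p = 0.000931). Psat1, an enzyme of serine synthesis, went the other way round, rising by 0.61 under MetR and 1.23 under siHoxc8 (-0.62 ± 0.11 for the difference, adjusted p = 0.00237). Asns, asparagine synthetase, rose under siHoxc8 (0.43 ± 0.11, adjusted p = 0.0154) and gave 0.30 ± 0.11 under MetR (adjusted p = 0.0501).

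Of 15 tested genes of the NRF2 antioxidant programme, 6 were higher and 6 lower under MetR (median 0.00), 9 higher and 1 lower under siHoxc8 (median 0.38), and 7 higher and 5 lower under TGF-β (median 0.22), beside 34.8% of all genes higher and 19.0% lower under MetR, 28.1% and 15.7% under siHoxc8, and 10.3% and 28.6% under TGF-β. Hmox1, heme oxygenase, was 19.0 and 20.9 FPKM in control, 13.6 and 11.9 in TGF-β, 73.7 and 85.1 in MetR and 72.4 and 70.7 in siHoxc8, with the control and TGF-β libraries low and the other 4 high, as for Slc7a5. Gclm, a subunit of the enzyme that starts glutathione synthesis, rose by 0.44 and 0.95, and Txnrd1, thioredoxin reductase, by 0.90 and 0.64 under MetR and siHoxc8. The factor gene Nfe2l2 rose under MetR (0.73 ± 0.11, adjusted p = 0.00137) and gave 0.11 ± 0.11 under siHoxc8 (adjusted p = 0.464).

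Genes of amino acid sensing by mTORC1, the kinase complex that leucine and other transported amino acids activate, gave 10 higher and 5 lower of 25 under MetR (median 0.06), 1 higher and 5 lower under siHoxc8 (median -0.08) and 1 higher and 11 lower under TGF-β (median -0.34). Under MetR these counts lie near the shares of all genes, 34.8% higher and 19.0% lower. The shares of all genes were 28.1% and 15.7% under siHoxc8 and 10.3% and 28.6% under TGF-β. Mtor passed in none of these. Deptor, an inhibitor of mTOR, was 62.0 and 65.8 FPKM in control, 3.01 and 2.23 in TGF-β, 12.7 and 5.61 in MetR and 5.64 and 4.80 in siHoxc8, and fell by 4.17 under TGF-β (SE 0.30, adjusted p = 0.000127) and rose by 1.40 under MetR (SE 0.30, adjusted p = 0.00635). The 1 higher gene of this list under siHoxc8 was Sesn2, which is in the ATF4 list as well. Slc38a9, the lysosomal arginine sensor, is counted among the other transporters and not in this list. It fell by 0.51 under siHoxc8 (SE 0.15, adjusted p = 0.0255).

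Among genes of methionine and polyamine use stood Mat2a, which makes S-adenosylmethionine from methionine. Mat2a measured 66.6 and 63.2 FPKM in control, 69.8 and 74.6 in TGF-β, 293 and 402 in MetR and 70.8 and 73.4 in siHoxc8. It rose 4.81-fold under MetR (2.23 ± 0.15, adjusted p = 7.03e-05), whereas siHoxc8 gave -0.00 ± 0.15 (adjusted p = 0.998) and the difference between them was 2.23 ± 0.15 (adjusted p = 3.43e-05). Of 14 tested genes in that list 5 were higher and 1 lower under MetR (median 0.34), 7 higher and 1 lower under siHoxc8 (median 0.48), and 2 higher and 5 lower under TGF-β (median -0.20). The count of higher genes under MetR is near the 34.8% of all genes, of which 19.0% were lower. The shares of all genes were 28.1% and 15.7% under siHoxc8 and 10.3% and 28.6% under TGF-β.

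**Figure D5:**
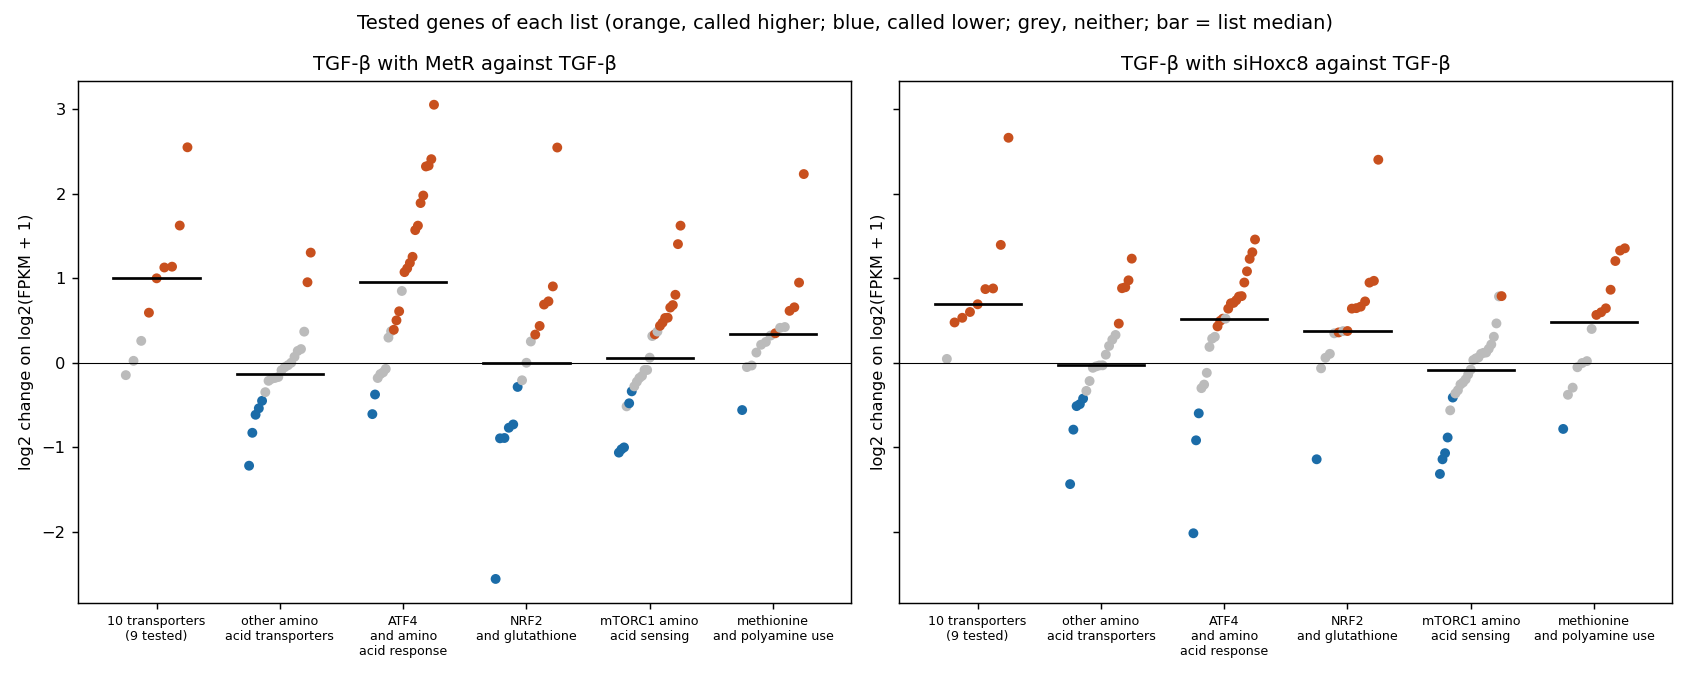
Log2 changes of the tested genes of each list under MetR and under siHoxc8, with points for genes, coloured where called, and a bar at the list's median. The 9 tested transporter genes have medians of 1.00 and 0.69, and the other transporters have medians of -0.13 and -0.03.

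The genes whose profile over the 8 libraries lay closest to each transporter were found by the root mean square difference of log2(FPKM + 1) centred on each gene's mean. Closest to Slc7a5 were Hmox1 (0.199) and Klhl41 (0.241), the latter a kelch protein that was under 1 FPKM in the control and TGF-β libraries. Closest to Slc3a2 were Ppp2r1b (0.0538) and Prpf4 (0.0561), and to Slc7a11 Utp4 (0.104) and Klf16 (0.137). Usp36 (0.101) and Zkscan5 (0.103) lay closest to Slc7a1. Chd7 (0.0625) and Map2k2 (0.0823) were nearest to Slc1a4, and Sema6b (0.167) and Rassf3 (0.168) to Slc1a5. Chd7 stood at 1.14 FPKM or less and Sema6b at 2.40 FPKM or less in every library, levels at which adding 1 shrinks log2 changes. Closeness to these low genes is therefore not a match in fold change. For Slc38a1 they were Fam168a (0.0370) and Smarcc1 (0.0558), for Slc38a2 Rita1 (0.0743) and Pde12 (0.0817), and for Slc6a9 Dhx38 (0.0570) and Frs2 (0.0604). Slc7a5 and Slc1a5 had the least close neighbours of the 9 genes, and also the largest SDs over the libraries (1.23 and 0.644 on this scale). The difference is not scaled to that SD, so it does not mark their profiles as more unusual. Among the transporters themselves the closest pair was Slc3a2 with Slc6a9 (0.201), then Slc3a2 with Slc7a1 (0.224). With 4 groups behind these profiles, such closeness describes shared differences between groups and libraries only.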

How the data were processed

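RNA-seq of polyadenylated RNA was analysed in 8 libraries in 4 groups of 2, taken from the sample titles, and 20 chromatin and input samples were not used here. The authors deposited 1 table of FPKM values with gene symbols, per the labels. The submitters' processing notes name the build rn6 and the tools featureCounts, deepTools, Bowtie2 2.3.5.1 and Trim Galore, with no roles. For the RNA-seq reads, aligner, annotation and strand setting were not given in the sources used here. Reads from overlapping or antisense genes may therefore be mixed.

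In each library the values were whole multiples of the value of 1 read, so reads could be recovered as whole numbers (within 0.02) for 100.0% of 19435 detected genes. These served for depth and for limma-voom as an alternative. Depth sets a precision for counting error only.

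Changes were tested with limma 3.58.1 in R 4.3.3 on log2(FPKM + 1), a scale that understates changes of low genes. All 8 libraries entered 1 fit with a coefficient per group, no covariates and variances moderated with a trend (4 residual and 3.47 prior degrees of freedom). The SE of a gene thus rests on the spread pooled over all 4 groups, also for groups that are not being compared. The filter kept 12315 genes that reached 1 FPKM in 2 libraries or more. P-values are two-sided and Benjamini-Hochberg adjusted over all of them per comparison, with a threshold of 0.05. The procedure was first tested on simulated data in which a gene had the same SD in every group and few genes changed. The unequal spread of the real groups and their many called genes were not covered by that test.

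The 10 genes, the other lists and the rule for named genes were chosen with earlier results of these data known. The rule names the 10 genes, the 6 other transporters highest in mean FPKM, Atf4, Ddit3, Trib3, Asns, Chac1, Sesn2, Psat1, Nfe2l2, Hmox1, Gclm, Txnrd1, Mtor, Deptor, Slc38a9, Mat2a and Hoxc8, and the 2 genes closest in profile to each tested transporter. Markers such as Krt8 were named from fixed marker lists. A total of 17 alternatives were tried: a pseudocount of 0.1, no low-value filter, a minimum of 5 FPKM, median ratio rescaling, quantile normalization, limma-voom on the recovered reads, library weights, a fit of the 2 groups alone, a replicate block, and leaving out each library. Same-numbered replicates are not stated to share a culture or day.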

Additional observations from a re-analysis of the deposited data

How the results depend on the processing

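Of 765 gene values under alternatives (9 genes, 5 comparisons, 17 alternatives), 682 kept their direction and their side of the threshold, 48 lost a call, 17 gained one and 18 changed sign. Every sign change was in a value that was not called. The number of transporter genes called was most fragile for TGF-β against control, where 2 became 1 with no low-value filter, 0 under quantile normalization (1 at an unadjusted p under 0.05, by limma), and 4 with library weights and 4 in the fit of the 2 groups alone. It ranged from 0 to 5 when single libraries were left out, reaching 0 without either control library or TGF-β replicate 1, with 1, 2 and 4 genes at an unadjusted p under 0.05, and 5 without either MetR library. For siHoxc8 against TGF-β 8 became 5 after median ratio rescaling and 4 to 8 with single libraries left out, the low values coming without a siHoxc8 library or TGF-β replicate 2. For MetR against siHoxc8 leaving out single libraries gave 3 to 7 around 5, with 3 without siHoxc8 replicate 1, for MetR against TGF-β 5 to 8 around 6, and for MetR against control 7 to 8 around 8.

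Sign changes for TGF-β against control were Slc7a11 -0.010 without TGF-β replicate 1 (0.26 without replicate 2), Slc1a5 0.18 after median ratio rescaling, 0.020 after quantile normalization and 0.18 with limma-voom, and Slc6a9 0.051 after median ratio rescaling and 0.041 with limma-voom. For MetR against TGF-β they were Slc38a1 -0.19 after median ratio rescaling, -0.16 after quantile normalization, -0.19 with limma-voom, -0.06 without TGF-β replicate 2 and -0.11 without MetR replicate 1, and Slc1a5 0.17 without MetR replicate 1 (-0.46 without replicate 2). For siHoxc8 against TGF-β, Slc38a2 was -0.12 after median ratio rescaling and -0.12 with limma-voom. For MetR against siHoxc8, Slc7a5 was 0.19 after quantile normalization and 0.16 without MetR replicate 1 (-0.38 without replicate 2), and Slc7a11 -0.18 without MetR replicate 2 (0.71 without replicate 1). For MetR against control, Slc1a5 was 0.13 without MetR replicate 1 and -0.51 without replicate 2. The cause was not tested.

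Counts over all genes moved by over 1.5 times as well. For TGF-β against control, 1269 higher and 3523 lower became 2349 and 2092 after median ratio rescaling, and fell to 599 and 1577 without control replicate 1. For siHoxc8 against TGF-β, 3460 higher and 1934 lower became 1933 and 1145 without siHoxc8 replicate 1. The deviations of same-numbered libraries correlated between -0.02 and 0.02 for 5 of the 6 pairs of groups and at 0.20 for TGF-β with MetR, so the numbers were not taken to pair the samples. With the replicate block the transporter calls numbered 3, 6, 8, 5 and 8 for TGF-β against control, MetR against TGF-β, siHoxc8 against TGF-β, MetR against siHoxc8 and MetR against control, with Slc38a1 called lower under TGF-β (adjusted p = 0.0475), and no other call changed. With no filter on low values Slc7a3, at 0 to 19 reads, was also tested, and the 7 calls for MetR against TGF-β and the 6 for MetR against siHoxc8 then include it.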
